A study of Saccharomyces cerevisiae with 6 samples.

Results

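The 10 genes described here are AAC1, PET9, AAC3, CYC1, CYC7, COX5A, COX5B, ANB1, ROX1 and HEM13 of the budding yeast Saccharomyces cerevisiae. They encode oxygen-regulated isoforms of mitochondrial proteins, an oxygen-regulated translation factor, a heme enzyme and the repressor Rox1, and are 10 of 5449 genes measured. Each was found by its name in the platform's annotation and had 1 probe set. The genes were chosen by name, with their log2 levels in this same comparison of deletion and wild-type already in view, so all differences between the strains are given as a description, with no p-value. Of the 10 products, Anb1, Rox1 and Hem13 are not known as mitochondrial proteins, so the term mitochondrial isoforms covers the other 7 genes. RNA of 2 groups of 3 samples was measured on 6 Affymetrix arrays. The reference group was the wild-type prototrophic strain FY4, and the other group was a mutant with GCN4 deleted. Gcn4 is a transcriptional activator of amino acid synthesis genes. Both groups grew in batch culture in minimal medium on glucose at 30 °C with shaking at 300 rpm, and were taken in exponential phase. The labels give no oxygen level, no culture age, and no parent strain or number of clones for the mutant. As background, FY4 descends from S288C, whose HAP1 gene carries a transposon insertion that impairs the heme-responsive activator Hap1.

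Yeast senses oxygen largely through heme, whose synthesis consumes oxygen. With heme present, Hap1 and the Hap2/3/4/5 complex activate genes of respiration, and Rox1, an HMG-box protein that recruits the Tup1-Cyc8 co-repressor, silences genes used at low oxygen. Several proteins therefore exist as an aerobic and a hypoxic isoform encoded by separate genes. PET9 and AAC3 encode the aerobic and hypoxic ADP/ATP carriers of the inner membrane, CYC1 and CYC7 the aerobic and hypoxic cytochromes c, and COX5A and COX5B the aerobic and hypoxic forms of a cytochrome oxidase subunit. ANB1 is the hypoxic gene for the translation factor eIF5A, whose aerobic gene is HYP2.

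The label of the mutant was borne out by GCN4 itself, whose intensity lay between 18826 and 23339 in the wild-type and between 18.1 and 22.3 in the deletion. The values deposited by the authors were normalised intensities on a linear scale, analysed here as log2. Wild-type arrays had a median intensity of 2112 to 2206 over the 5449 genes, deletion arrays one of 2281 to 2341, and the median log2 difference of all genes was 0.09. Centring each array on its median shifted that median by -0.10 and quantile normalization by -0.11. Across all genes 24.6% were called higher and 7.67% lower in the deletion (limma, adjusted p under 0.05). The share of calls that were higher was 76.2% as deposited, 52.5% after centring and 44.2% after quantile normalization. Arrays with the same replicate number deviated together in both groups. The 908 genes of up to 600 bases were low on both arrays numbered 3, with a median deviation from the group mean of -0.18 (wild-type) and -0.20 (deletion). The 4541 longer genes had medians of 0.01 and 0.03 on those arrays. Of the 10 genes, CYC1, CYC7, COX5A, COX5B and ANB1 are in the shorter class. The labels do not say whether replicates were separate cultures, so p-values for other genes measure only the spread between these arrays.

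The hypoxic carrier gene AAC3 and both cytochrome c genes were more than 2-fold higher in the deletion, HEM13 and COX5A were 1.52-fold and 1.35-fold higher, and the other 5 genes differed by less than 1.2-fold. The genes labelled hypoxic thus did not move together: AAC3, CYC7 and HEM13 were higher, whereas COX5B and ANB1 had overlapping groups. After centring the log2 differences of COX5B and ANB1 were -0.25 and -0.14. All 10 genes lay above the background level on all 6 arrays. As deposited, every deletion array was above every wild-type array for 8 of them, a pattern found in 34.9% of all genes, with the reverse in 12.6%. After centring the groups of PET9, AAC1 and ROX1 overlapped. The fit over all genes called 6 of the 10 higher and 0 lower, beside 24.6% and 7.67% of all genes. The median log2 difference of the 10 genes was 0.32. These counts describe genes chosen with this comparison known, and nothing is read from them.

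**Figure D1:**
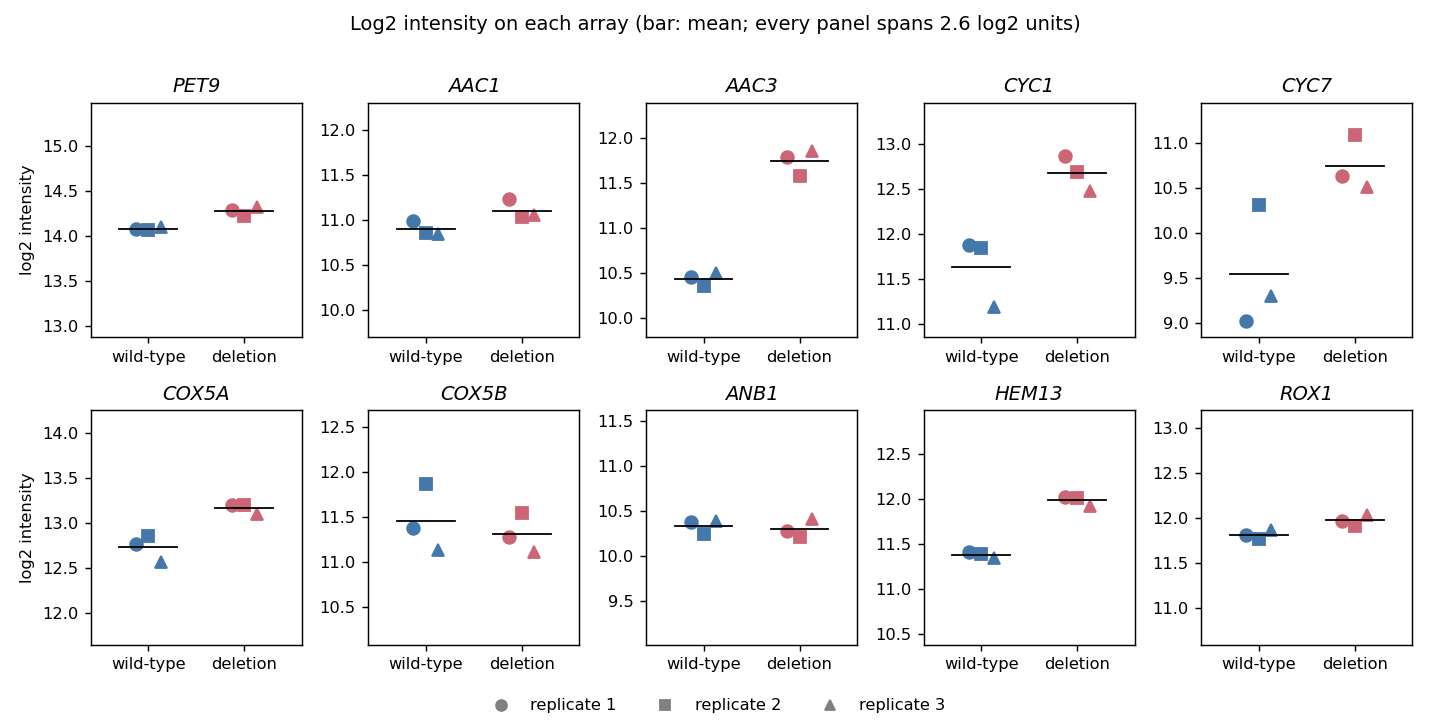
Log2 intensity (y axis) of each of the 10 genes on the wild-type and deletion arrays (x axis), with the replicate number as marker and the mean as a bar; every panel spans the same range. The groups of AAC3 and HEM13 are tight and far apart, CYC1 and CYC7 are spread within groups, and the groups of COX5B and ANB1 overlap.

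PET9 encodes the major ADP/ATP carrier, which exchanges ATP made in the mitochondrion for cytosolic ADP. Its log2 level was 14.08, 14.07 and 14.09 on wild-type arrays 1, 2 and 3, against 14.28, 14.22 and 14.32 on the deletion arrays of the same numbers. The groups did not overlap, and the wild-type SD of 0.01 was lower than that of all but 2.13% of genes. PET9 was thus 0.19 ± 0.03 (SE) higher on the log2 scale, or 1.14-fold. Centring, which shifts all genes alike, left a difference of 0.09, whereas quantile normalization gave 0.21.

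AAC1 is the minor aerobic carrier gene. Wild-type arrays gave a log2 level of 10.99, 10.86 and 10.84, against 11.23, 11.03 and 11.05 in the deletion. The lowest deletion array stood just above the highest wild-type array. The difference was 0.21 ± 0.08 (SE), or 1.15-fold, and 0.10 after centring.

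AAC3 is the carrier gene induced at low oxygen and repressed by Rox1. Wild-type arrays gave log2 levels of 10.46, 10.35 and 10.50, and deletion arrays 11.79, 11.58 and 11.85. In intensity this was 1306 to 1445 against 3063 to 3690. The gap between the groups was several times the spread within either, with SDs of 0.08 and 0.14 (n = 3 each). AAC3 was 1.30 ± 0.09 (SE) higher, or 2.47-fold, which is above the change of 97.7% of all genes. Leaving out any 1 array gave 1.25 to 1.38, and quantile normalization 1.19.

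The carrier genes therefore changed unequally. The change of AAC3 exceeded that of PET9 by 1.11 ± 0.06 (SE) on the log2 scale, a 2.16-fold difference between the changes, and by 1.13, 1.08 and 1.13 within arrays numbered 1, 2 and 3. It exceeded the change of AAC1 by 1.10 ± 0.10. By contrast the changes of AAC1 and PET9 differed by 0.01 ± 0.08. Such a difference between changes is not altered by centring. It compares how far each gene moved, not the levels of different probe sets, which cannot be set against each other. Whether probes of one isoform gene also bind transcripts of another was not tested, here or for the cytochrome c and Cox5 genes.

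**Figure D2:**
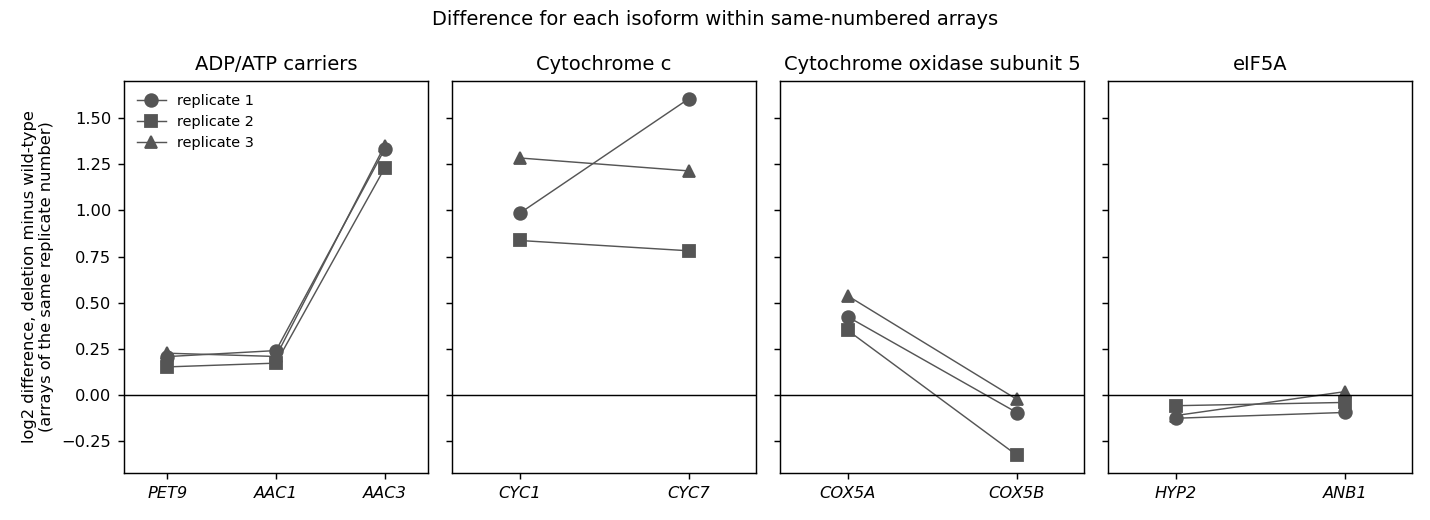
Log2 difference, deletion minus wild-type (y axis), between arrays of the same replicate number for each isoform (x axis), with lines joining isoforms within a number. AAC3 lies about 1.1 above PET9 and AAC1 for every number, COX5B lies below COX5A for every number, and the lines of CYC1 and CYC7 cross.

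CYC1 encodes the major cytochrome c, which carries electrons from complex III to cytochrome oxidase. In the wild-type its log2 level was 11.88, 11.85 and 11.19, whereas deletion arrays gave 12.86, 12.68 and 12.47. The lowest value in each group was on the array numbered 3, and the groups did not overlap. CYC1 was 1.04 ± 0.25 (SE) higher in the deletion, and 0.98, 0.84 and 1.29 higher within arrays numbered 1, 2 and 3. Without wild-type replicate 3 the difference was 0.81, the lowest on leaving out any 1 array.

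CYC7, the hypoxic cytochrome c gene, had the widest spread of the 10 genes. The wild-type intensities were 520 on array 1, 1269 on array 2 and 629 on array 3, and those of the deletion arrays were 1583, 2182 and 1460. Array 2 was the highest in each group, and wild-type array 2 came close to the lowest deletion array. The wild-type SD of 0.68 on the log2 scale exceeded that of 99.2% of all genes. CYC7 was 1.20 ± 0.43 (SE) higher, or 2.30-fold with a range of 1.71 to 3.10 for 1 SE either way. Same-numbered arrays differed by 1.61, 0.78 and 1.21, and leaving out 1 array gave 0.94 to 1.58.

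Both cytochrome c genes were thus higher on every deletion array, and their changes could not be told apart. The change of CYC7 minus that of CYC1 was 0.17 ± 0.44 (SE), and it was 0.62, -0.06 and -0.07 within arrays numbered 1, 2 and 3. It turned negative without wild-type replicate 1 (-0.22). An interval this wide would also hold a sizeable difference in either direction.

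COX5A encodes the aerobic form of a nuclear-encoded cytochrome oxidase subunit. Log2 levels were 12.77, 12.86 and 12.57 in the wild-type, against 13.20, 13.21 and 13.11 in the deletion. All deletion arrays lay above all wild-type arrays, with array 3 the lowest of each group. COX5A was 0.44 ± 0.09 (SE) higher, or 1.35-fold, and 0.33 after centring.

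COX5B, the hypoxic form of that subunit and a Rox1-repressed gene, had log2 levels of 11.38, 11.87 and 11.13 in wild-type samples, against 11.28, 11.54 and 11.11 in deletion samples. The groups overlapped, and array 2 was the highest and array 3 the lowest of each. The difference was -0.15 ± 0.25 (SE). Within same-numbered arrays it was -0.10, -0.33 and -0.02, and without wild-type replicate 2 it turned to 0.06.

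The Cox5 forms therefore differed in the opposite sense to the ADP/ATP carriers, with the aerobic gene showing the larger change. The change of COX5B minus that of COX5A was -0.59 ± 0.17 (SE), a 1.50-fold difference between the changes. It was -0.52, -0.68 and -0.56 within arrays numbered 1, 2 and 3, and -0.68 to -0.44 on leaving out any 1 array.

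ANB1 encodes the hypoxic form of eIF5A, which helps ribosomes through difficult stretches of protein, and is a classical Rox1 target. Wild-type arrays gave log2 levels of 10.37, 10.25 and 10.39, and deletion arrays 10.28, 10.21 and 10.41. The groups overlapped over nearly their whole range. The difference was -0.04 ± 0.07 (SE), with -0.14 after centring, -0.17 after quantile normalization and 0.00 without deletion replicate 2. HYP2, the aerobic eIF5A gene, had log2 levels of 14.20 ± 0.03 and 14.10 ± 0.03 (SD, n = 3), a difference of -0.10 that did not pass the test (adjusted p = 0.141, limma), and did after centring (adjusted p = 0.0295). The changes of ANB1 and HYP2 differed by 0.06 ± 0.09 (SE). Whether probes of one eIF5A gene also bind transcripts of the other was not tested. In the R64 gene table ANB1 and CYC1 are neighbours on chromosome X with 0 genes between them, and CYC7 and HYP2 lie on chromosome V with 4 genes between them. Next to each other on the chromosome, CYC1 was 2.05-fold higher in the deletion whereas ANB1 was 1.03-fold lower.

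HEM13 encodes coproporphyrinogen oxidase, an oxygen-consuming step of heme synthesis, and is induced when heme or oxygen runs short. Wild-type samples had log2 levels of 11.41, 11.39 and 11.35, against 12.02, 12.01 and 11.92 in deletion samples. The groups lay far apart for their spread, with SDs of 0.03 and 0.05 (n = 3 each). HEM13 was 0.60 ± 0.04 (SE) higher, or 1.52-fold, and 0.58 to 0.63 higher on leaving out any 1 array. Centring gave 0.50.

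ROX1, the repressor gene, had log2 levels of 11.81, 11.77 and 11.86 in wild-type samples, against 11.97, 11.91 and 12.04 in deletion samples. Each deletion array exceeded each wild-type array by a small margin, and same-numbered arrays differed by 0.16, 0.14 and 0.17. The difference was 0.16 ± 0.04 (SE), or 1.12-fold, and 0.06 after centring, so most of it was shared with the median gene. Among 5264 other genes above background on all arrays, those most like ROX1 by Pearson correlation of log2 values over the 6 arrays were IFM1, a mitochondrial translation initiation factor gene (r = 0.998), STE24, a CAAX protease gene (r = 0.994), and the histone deacetylase gene RPD3 (r = 0.993). With 6 arrays in 2 groups, 618 genes had r above 0.9.

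**Figure D3:**
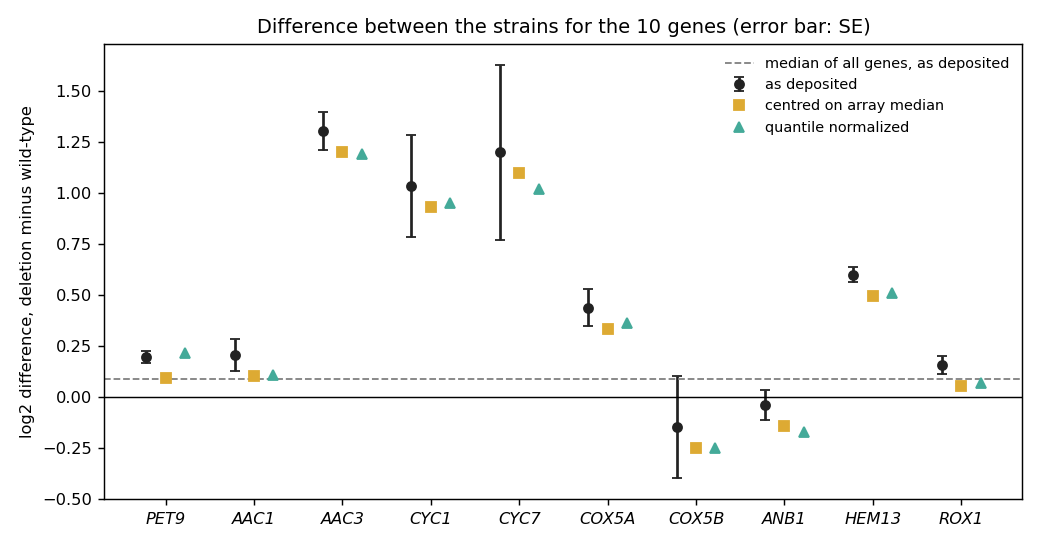
Log2 difference, deletion minus wild-type (y axis), of the 10 genes (x axis) as deposited with SE bars (n = 3 arrays a group), after centring on the array median, and after quantile normalization. AAC3, CYC1, CYC7, COX5A and HEM13 stay well above 0 on each scale, PET9 lies at 0.09 after centring and 0.21 after quantile normalization, and the dashed line is the median of all genes as deposited, 0.09.

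Within groups, CYC1, CYC7, COX5A and COX5B moved with the replicate number. CYC7 deviated from its group mean by 0.77 and COX5B by 0.41 on wild-type array 2, and by 0.35 and 0.23 on deletion array 2. On arrays numbered 3 these 4 genes were all low, by 0.16 to 0.45 in wild-type and 0.06 to 0.23 in deletion samples. ANB1, of similar length, was not, with deviations of 0.05 and 0.11. The carriers, HEM13 and ROX1, which are longer genes, stayed within 0.16 of their group means on every array. Without both arrays numbered 3, CYC1 was 0.91 higher in the deletion and CYC7 1.19 higher. The part of the shared array effect in the spread of the shorter genes was not tested further.

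**Figure D4:**
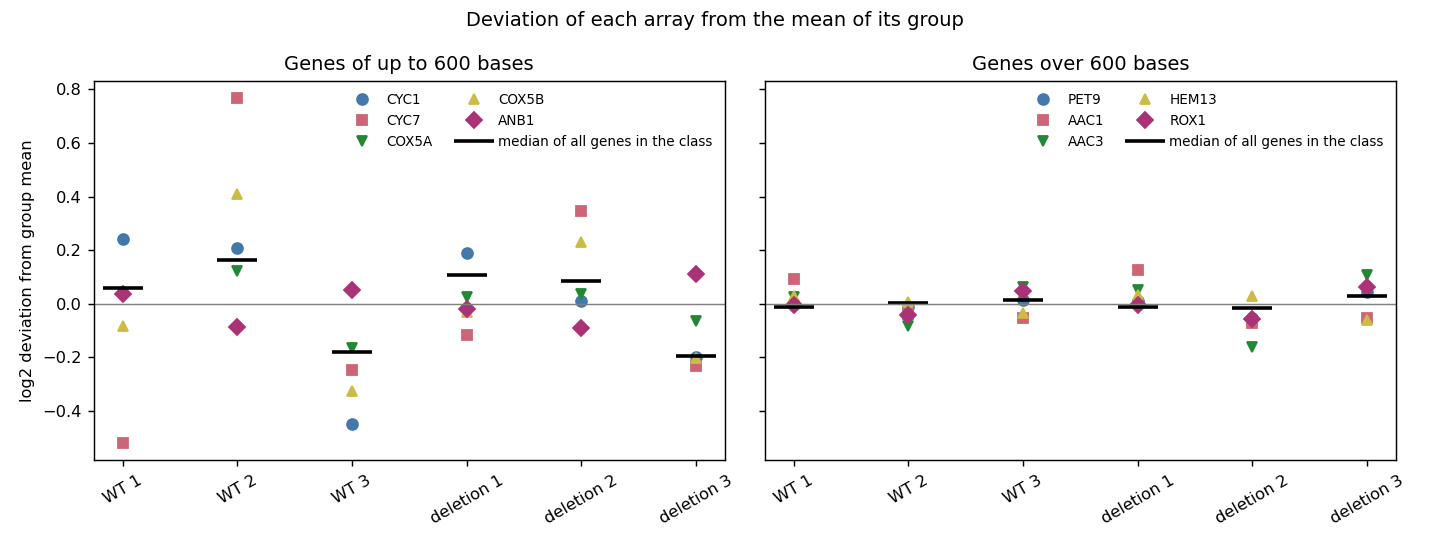
Log2 deviation of each array from the mean of its group (y axis) for the 5 shorter and 5 longer of the 10 genes (points), with the median over all genes of that length class as a black bar, by array (x axis; WT, wild-type). CYC1, CYC7, COX5A and COX5B are low on both arrays numbered 3, where the median of all shorter genes is also low.

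Other regulators of oxygen-responsive genes were mixed. This list and those that follow were chosen with earlier results of these data known, so their counts and adjusted p-values are given as description. Of 13 regulator genes, 5 rose, 1 fell and 7 did not pass the test, beside 24.6% and 7.67% of all genes, with a median log2 difference of 0.10 against 0.09 for all genes. HAP4, which encodes the activating subunit of the Hap2/3/4/5 complex, had a log2 level of 12.34 ± 0.04 in wild-type and 13.21 ± 0.15 in deletion samples (SD, n = 3) and so rose 1.83-fold (adjusted p = 0.000616, limma). UPC2 and ECM22, paired zinc-cluster activators of sterol genes of which Upc2 also acts on anaerobic genes, rose 1.60-fold and 1.34-fold (adjusted p = 0.00451 and 0.00192). CYC8, the co-repressor gene, and SPT23, an activator of the desaturase gene OLE1, rose 1.21-fold and 1.22-fold, and neither passed after centring (adjusted p = 0.123 and 0.129) or quantile normalization (0.074 and 0.11). MGA2, the partner of SPT23, fell 1.21-fold (adjusted p = 0.0245), a call kept on leaving out wild-type replicate 2 or deletion replicate 3 but no other array (adjusted p of 0.0589 to 0.0729 otherwise). HAP1 had a log2 difference of -0.04 and MOT3, a repressor that acts with Rox1, one of -0.18, neither past the test (adjusted p = 0.702 and 0.0862). MOT3 passed after centring (adjusted p = 0.0417) and in the fit with a replicate block (adjusted p = 0.0244).

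In the rest of the heme pathway 2 of 8 genes rose, 0 fell and 6 did not pass, a share near the 24.6% higher and 7.67% lower of all genes. HEM3, porphobilinogen deaminase, passed in the fit with a replicate block (adjusted p = 0.00646, against 0.051 without it, limma). HMX1, heme oxygenase, which breaks heme down, rose 2.68-fold, from 8.11 ± 0.12 to 9.53 ± 0.13 on the log2 scale (SD, n = 3; adjusted p = 0.000118, limma). HEM2, porphobilinogen synthase, rose 1.24-fold (adjusted p = 0.00258). The median log2 difference of the list was 0.16.

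Other nuclear cytochrome oxidase subunits all had positive log2 differences, from 0.18 to 0.76 with a median of 0.47, but only 2 of 7 passed, beside 24.6% called higher among all genes and 15.7% among genes of up to 600 bases. COX12 rose 1.54-fold and COX6 1.29-fold (adjusted p = 0.0207 and 0.0268, limma). All 7 are genes of up to 600 bases. With the replicate number as a block 7 of 7 rose, in a fit that called 35.3% of all genes higher and 12.2% lower. The calls of COX12 and COX6 ended without wild-type replicate 1 (adjusted p = 0.072 and 0.0849), wild-type replicate 3 (0.0548 and 0.07) or deletion replicate 2 (0.0675 and 0.0816), and COX6 lost its call also without deletion replicate 1 (0.0534) or 3 (0.0531) and after centring (0.0607).

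Of 7 genes that mature cytochromes c or exchange electrons with cytochrome c, 4 rose, 1 fell and 2 did not pass, beside 24.6% higher and 7.67% lower among all genes. CYT1, cytochrome c1 of complex III, rose 1.54-fold (adjusted p = 0.000587, limma), and CYT2, its heme lyase, 1.20-fold (adjusted p = 0.00783). CYB2, a lactate dehydrogenase that feeds cytochrome c, rose 1.25-fold and CCP1, cytochrome c peroxidase, 1.18-fold (adjusted p = 0.0148 and 0.0187). Quantile normalization cut the log2 difference of CYB2 from 0.32 to 0.04 (adjusted p = 0.607) and ended the call of CCP1 (adjusted p = 0.0567). DLD1, the D-lactate dehydrogenase gene, fell 1.13-fold (adjusted p = 0.0347). After centring CYT1 and DLD1 alone kept their calls, with adjusted p of 0.0522 to 0.123 for the others. CCP1 was not called without wild-type replicate 1, deletion replicate 1 or deletion replicate 3 (adjusted p of 0.054 to 0.0601), CYB2 without deletion replicate 1 (adjusted p = 0.0516), and DLD1 was called on leaving out wild-type replicate 3 but no other array (adjusted p of 0.0629 to 0.114 otherwise).

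Hypoxic genes outside the 10 went both ways, with 3 of 8 higher, 4 lower and 1 not past the test, beside 24.6% higher and 7.67% lower among all genes. Keeping only genes above background on at least 3 arrays removed DAN1 and left 2 higher and 4 lower. The remaining gene, OLE1, the fatty acid desaturase gene, had a log2 difference of -0.27 (adjusted p = 0.066, limma) and passed after centring (adjusted p = 0.0398) and with a replicate block (adjusted p = 0.0149). FET4, a low-affinity iron transporter gene repressed by Rox1, fell 4.78-fold (adjusted p = 5.38e-06, limma), and AUS1 and PDR11, sterol importers, 1.83-fold and 1.35-fold (adjusted p = 8.84e-05 and 0.00345). FRD1, a fumarate reductase gene, fell 1.12-fold (adjusted p = 0.0425), a call lost on leaving out any 1 array (adjusted p of 0.0506 to 0.135). TIR1, a cell wall mannoprotein gene, rose 2.41-fold and SUT1, a regulator of sterol uptake, 1.26-fold (adjusted p = 0.00331 and 0.00823). DAN1, another mannoprotein gene, lay below the background level in 3 of 3 wild-type samples and above it in 2 of 3 deletion samples. Set against that level, it was at least 1.01-fold higher. The fit used the values as measured, including those below background, and gave a log2 difference of 2.54 (adjusted p = 0.0112, limma).

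Among the remaining isoform pair, HMG1, the aerobic HMG-CoA reductase gene of sterol synthesis, rose 1.34-fold (adjusted p = 0.00118, limma), while its hypoxic partner HMG2 had a log2 difference of -0.03 that did not pass (adjusted p = 0.707). Of 4 other adenine nucleotide and phosphate carriers 3 rose and 1 did not pass, beside 24.6% higher and 7.67% lower among all genes. PIC2, a minor phosphate carrier gene, rose 1.70-fold (adjusted p = 0.00159), MIR1, the major phosphate carrier gene, 1.21-fold (adjusted p = 0.00769), and ANT1, the peroxisomal adenine nucleotide carrier gene, 1.14-fold (adjusted p = 0.03). After centring PIC2 kept its call and MIR1 and ANT1 did not (adjusted p = 0.0783 and 0.287), and ANT1 was not called after quantile normalization either (0.238). ANT1 kept its call on leaving out deletion replicate 1 but no other array (adjusted p of 0.0585 to 0.102 otherwise).

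**Figure D5:**
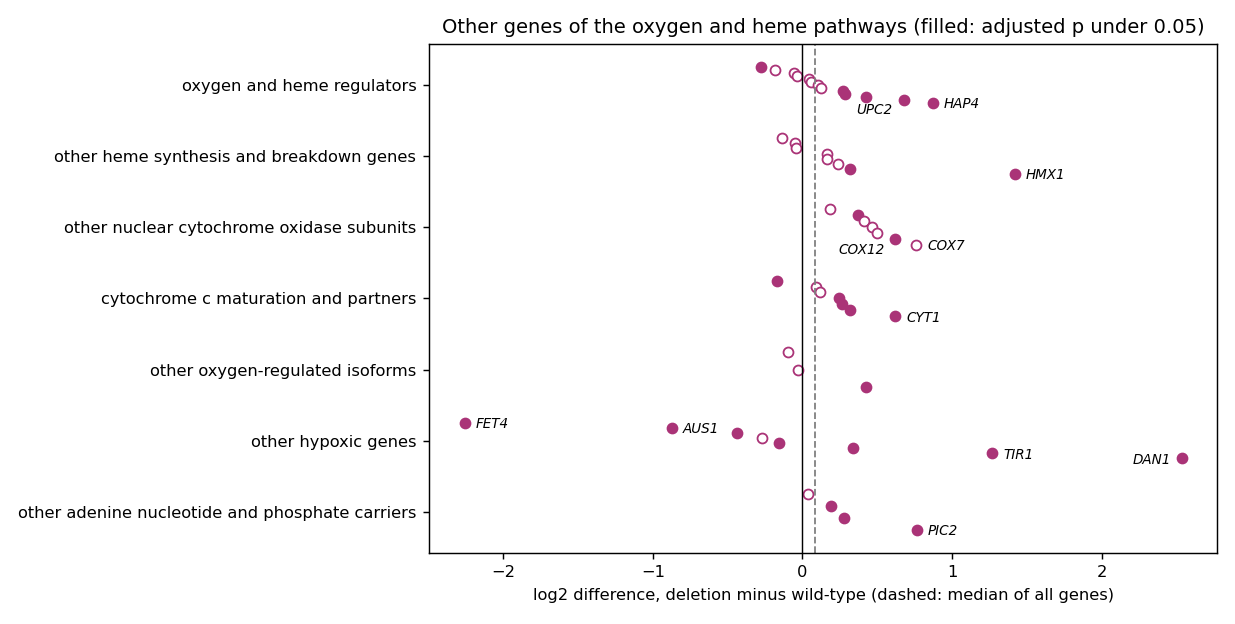
Log2 difference, deletion minus wild-type (x axis), of the genes in each list (y axis), filled where the adjusted p was under 0.05 by limma; the dashed line is the median of all genes, 0.09. FET4 lies farthest to the left, HMX1, TIR1 and HAP4 lie to the right, and DAN1 is plotted at its measured value although it was below background on 3 wild-type arrays and 1 deletion array.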

How the data were processed

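The deposited values are normalised intensities on a linear scale, 1 column per array. The submitters' processing notes name R 2.8.0, affy and RMA, with no role or order, and no source used here says whether further arrays were normalised together with these 6. Log2 was taken with no pseudocount. Of 10928 probe sets, 5498 named 1 S. cerevisiae gene through the platform's annotation, and the brightest probe set of each gene left 5449 genes. The background level of an array was the 95th percentile of 1746 probe sets for another species. Where the dimmer group was below it, the fold is a lower bound against it.

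Groups came from sample titles. All genes were fitted with limma 3.58.1 in R 4.3.3 (deletion minus wild-type, no covariate, two-sided, Benjamini-Hochberg over 5449 genes, threshold 0.05). On simulated data limma recovered 77.6% of 67 genes changed by 0.5, 89.6% of 67 changed by 1 and 97% of 66 changed by 2 on the log2 scale, and called 9 of 5249 unchanged genes. The simulated noise was independent between genes and arrays, with no shared array effect and no shift between groups. These rates therefore may not hold for the real arrays. The SE of the 10 genes is from the SDs of both groups. Members and lists were chosen with earlier results of these data known. From each list the text names up to 4 called genes with the largest changes, and HYP2, HAP1, HAP4, MOT3 and UPC2. CYC8, MGA2, DLD1, PDR11, SUT1, FRD1, HMG2, HEM3, OLE1 and SAL1 were named after their values were seen.

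Same-numbered arrays of the 2 groups correlated in their deviations from the group means with r of 0.69, 0.53 and 0.71, each over 0.1, which was the limit for taking numbers as pairs. Wild-type array 2 and deletion array 1 also passed that limit (r = 0.226), so the limit alone does not single out the pairing. The other mismatched arrays had r of -0.637 to -0.165. The main fit and the SEs are unpaired, so they also include the spread that same-numbered arrays share. The fit with the number as a block, and the differences within same-numbered arrays, leave that shared part out. The labels give only numbers. Alternatives covered scaling, a filter on dim genes, all probe sets, the replicate block, array weights and left-out arrays. Centring together with the block, and the length classes, were chosen after seeing the data. The number of arrays limits the precision. Sequences are not printed, since sequence was not used here. Figures were drawn with matplotlib 3.10.9.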

Additional observations from a re-analysis of the deposited data

How the results depend on the processing

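The mean differences of AAC3, CYC1, CYC7, COX5A, HEM13, PET9, AAC1 and ROX1 stayed positive after centring and after quantile normalization. Centring left only 0.09 for PET9, 0.10 for AAC1 and 0.06 for ROX1, and on that scale the groups of each of them overlapped. Leaving out arrays could not change the sign of any of the 8, since their groups did not overlap as deposited. The block leaves the difference itself unchanged. COX5B and ANB1 changed sign in 1 of 10 alternatives each. No gene of the 10 has a second probe set, so averaging probe sets was not run. Quantile normalization moved the change of AAC3 minus PET9 to 0.98, that of AAC1 minus PET9 to -0.11 and that of ANB1 minus HYP2 to -0.087, and turned SAL1, a carrier gene not called as deposited, to -0.16 (adjusted p = 0.047). The 10 genes held 6 calls as deposited, all higher, beside 24.6% of all genes called higher and 7.67% lower. With the replicate number as a block they held 8, all higher, beside 35.3% and 12.2%. They held 4 to 5 calls without 1 array, and 5 higher and 2 lower with centring and block. Over all genes the fit with centring and block called more genes lower than higher, and a share lower well above 7.67%. The 10 genes were chosen with this comparison known, so nothing is read from the counts. Over all genes 1756 were called, 1190 to 1496 without 1 array and 2591 with the block. Calls among cytochrome oxidase subunits went from 2 to 1 after centring, 0 with all probe sets, 7 with the block, 6 with array weights, 5 with centring and block, and 0 to 3 without 1 array. All of these calls were higher. The number of higher calls over all genes also rose with the block and with array weights. It fell after centring, with all probe sets and on leaving out any 1 array. Calls among cytochrome c partners went from 4 higher and 1 lower to 1 higher and 1 lower after centring. Quantile normalization left 2 higher and 1 lower. Only 2 calls, all higher, remained with all probe sets or without both arrays numbered 3, and 2 to 5 calls without 1 array. Regulators went from 5 higher and 1 lower to 3 higher and 0 lower with all probe sets. Carriers went from 3 higher to 1 higher after centring. Heme genes went from 2 calls, all higher, to 6 with centring and block, of which 3 were higher and 3 lower. Over all genes that fit also called more genes lower than higher. Isoforms went from 1 higher to 1 higher and 1 lower after centring. With centring and block, where lower calls outnumbered higher ones over all genes, isoforms held 1 higher and 2 lower. Among single list genes, 593 of 699 alternatives kept the side of the threshold. The block changed list calls in MOT3, HEM3, OLE1 and the cytochrome oxidase subunits. The causes were not tested.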

Other observations

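Genes of up to 600 bases were less reproducible than longer ones on these arrays. Their median within-group SD was 0.23 on the log2 scale against 0.08 for longer genes, and 15.7% of them were called higher in the deletion against 26.3% of longer genes, with median log2 differences of 0.10 and 0.08. Set against the 908 shorter genes alone, the SD of CYC7 exceeded 92.1% of them, that of CYC1 70.7% and that of ANB1 10.7%. The changes of CYC1 and CYC7 exceeded those of 95.6% and 96.7% of the shorter genes.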
